A study of Mus musculus with 8 samples.

Results

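Potassium channel genes were taken from the deposited count matrix of a mouse brain RNA-seq experiment as every entry whose symbol starts with *Kcn*, which gave 97 of 24015 entries. The study removed a conserved regulatory interval, 1b, from *Scn1a*, the gene of a neuronal sodium channel pore. Libraries were made from 8 C57BL/6N mice at postnatal day 7 (P7), all from a single line founded by Cas9 deletion of the interval in oocytes of this strain and then rederived. WT mice had 0 deleted alleles (n = 2, both male), 1b+/- mice had 1 (n = 4, with replicates 1 and 2 male and replicates 3 and 4 female) and 1b-/- mice had 2 (n = 2, both female). No other allele or treatment was named for any group, and the interval was deleted in the germ line, so it was not limited to a cell type. Sex cannot be told apart from genotype between WT and 1b-/-.

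Potassium channels let potassium leave the cell along its gradient, which sets the resting potential, ends action potentials and shapes how neurons fire. Pore-forming subunits fall into voltage-gated (Kv), calcium- or sodium-activated, inwardly rectifying (Kir) and two-pore-domain leak families, while silent subunits and auxiliary subunits have no working pore of their own and modify the others. In the forebrain they are found in neurons, glia, vessels and choroid plexus, so that levels in bulk tissue mix many cell types. In such samples fewer cells of a type and less RNA per cell cannot be told apart.

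*Scn1a* was at 45.1 and 40.5 CPM (counts relative to TMM-adjusted library size) in WT, at 26.7, 22.2, 25.4 and 15.7 CPM in 1b+/- and at 3.18 and 2.003 CPM in 1b-/-, so the 3 genotypes did not overlap and each library matched its label. Total counts ran from 2947770 (1b+/- replicate 4) to 20878772 (1b+/- replicate 3), and a count of 0 therefore allowed up to 1.0 CPM in the shallowest library and 0.145 CPM in the deepest, for counting error only. The labels name the tissue as hippocampus and the methods of the study name P7 forebrain. Of 9 markers of hippocampal neurons, *Neurod6* alone held 88.6% to 94.6% of the sum, and the 8 others together were at 95.1 to 138 CPM. These ran from *Zbtb20* at 46.5 to 89.5 CPM and *Prox1* at 11.6 to 30.8 CPM down to *Spink8* of field CA1, at most at 0.505 CPM. Summed markers of striatal neurons were at 161 to 291 CPM and those of thalamic neurons at 343 to 547 CPM. Within WT, the thalamic sum was 547 CPM in replicate 1 and 351 CPM in replicate 2. *Tcf7l2* of that list was at 118 and 13.3 CPM there and *Slc17a6* at 140 and 90.6 CPM. All others of the list were also higher in replicate 1, except *Lhx2*, at 116 and 131 CPM. Whether the dissected tissue differed between these libraries was not tested. Nothing in the sources used here says whether the animals shared litters.

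A part that all pore subunits share, and that the choice by symbol did not use, is the selectivity filter, the short loop whose backbone strips water from potassium and passes it on. Its coding bases are shown because the fourth filter codon and the number of filters differ between some families. Many families share the same filter residues, as *Kcnd2* and *Kcnc1* do, so the stretch does not tell all of them apart. Each line is 27 bases of mm9 coding sequence (GENCODE annotation), read 5′ to 3′ on the coding strand, with the 5 filter codons in capitals. A leading member is given for several classes, with *Kcnk2* beside *Kcnk10* because their first filters differ.
Kcnd2: atgacaACACTGGGGTATGGCgacatg
Kcna2: atgacaACTGTAGGCTATGGAgacatg
Kcnc1: atgacgACACTGGGCTATGGAgacatg
Kcnma1: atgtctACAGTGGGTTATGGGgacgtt
Kcnj2: cagacaACCATTGGCTATGGTttcagg
Kcnh8: ctcacaAGCGTTGGGTTTGGGaatgtg
Kcnk10, first filter: atcacaACCATAGGGTATGGGaatatt
Kcnk10, second filter: ctgaccACAGTAGGCTTTGGTgatttt
Kcnk2, first filter: atcacaACCATAGGATTTGGAaacatc
Kcnk2, second filter: ctgacgACCATTGGATTTGGAgactac

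These stretches lie in coding exons, at chr3:106908136-106908162 on the plus strand for *Kcna2* and chr11:110933515-110933541 on the plus strand for *Kcnj2*. A filter was found in all 77 pore-forming or silent members and in 0 of the 17 auxiliary or other members with a coding sequence. All 14 *Kcnk* genes carried a pair of them, and the other 63 carried 1. The fourth capital codon encodes tyrosine (TAT or TAC) in the first filter of 61 genes and phenylalanine (TTT or TTC) in that of 16, which include all 8 *Kcnh* genes, both *Kcnt* genes, *Kcnu1*, *Kcnj8*, *Kcnj11* and *Kcnk2*. In the second filter of the *Kcnk* genes it was phenylalanine in 11 genes and leucine in 3. An intron cut the first filter of all 14 *Kcnk* genes after base 13 of the stretch, and the filter of all 3 *Kcnd* genes after base 14, both within the first glycine codon, and it cut 0 of the others. The *Kcnd2* stretch therefore spans chr6:21167400-21664147 with an intron of 496721 bp inside it, and the first stretch of *Kcnk10* spans chr12:99728262-99734415 on the minus strand with an intron of 6127 bp. Reads of a gene were summed over exons, so these splits did not enter the levels below.

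Levels between genes are compared as RPKM, the CPM divided by the length of the union of annotated exons in kilobases, which was known for 94 members. For some of them, such as *Kcnh8*, *Kcnq3*, *Kcng2* and *Kcnk9*, the annotated exons held only coding sequence. Their RPKM may therefore be too high beside genes annotated with longer ends. All 97 members had a count in some library, 78 had counts in all 8, 59 had a mean of at least 1 RPKM and 21 of at least 5 RPKM. Between 0.144% and 0.184% of all counts in a library belonged to potassium channel genes, and their summed level was 287 to 325 RPKM. The 5 members with the highest means held 23.0% of that sum, the first 10 held 39.3% and the first 20 held 62.4%.

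Which classes led at P7 was asked first. Voltage-gated pore subunits together held 41.4% ± 1.23 (SD, n = 8) of the summed RPKM of all members, auxiliary subunits 18.6% ± 1.52, two-pore-domain leak channels 13.9% ± 0.765, calcium- or sodium-activated pores 9.65% ± 0.740, inward rectifiers 9.57% ± 0.330 and silent subunits 5.60% ± 0.657. Of the 7 pore classes asked about, *Kcnk* came first with 13.9% and was above *Kcna* in 8 of 8 libraries. *Kcna* (10.3% ± 0.860), *Kcnd* (10.02% ± 1.14) and *Kcnj* (9.57% ± 0.330) followed without a stable order, since *Kcna* exceeded *Kcnd* in 4 of 8 libraries and *Kcnd* exceeded *Kcnj* in 5 of 8. *Kcnq* (7.24% ± 0.706), *Kcnb* (5.01% ± 0.553) and *Kcnc* (3.17% ± 0.350) came after them. The first place of *Kcnk* rests on the division by length: as shares of summed CPM with no length, *Kcnd* came first with 15.1%, *Kcnq* had 11.5% and *Kcnk* had 9.57%.

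**Figure D1:**
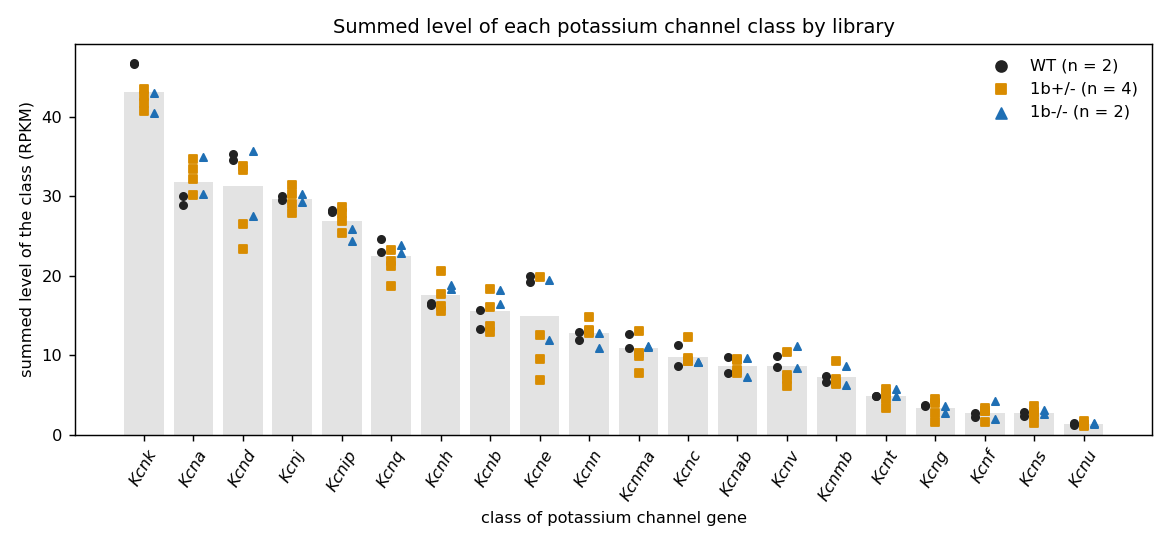
Summed level of each class of potassium channel gene (RPKM, vertical axis), with a bar for the mean of 8 libraries and a point for each library by genotype. The *Kcnk* points sit between 40.5 and 46.8 RPKM, above those of every other class, and both WT points of *Kcnk* lie above the 6 others of that class.

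*Kcnd* genes encode Kv4 subunits, which carry the fast inactivating A-type current of dendrites, and this class rested on a pair of genes. *Kcnd2* (Kv4.2), on mm9 chromosome 6 at 21165503 to 21679805, had the highest level of all members, with 21.7 and 22.1 RPKM in WT, 21.4, 11.04, 21.1 and 15.9 RPKM in 1b+/- and 15.2 and 24.2 RPKM in 1b-/-. Its low values were in 1b+/- replicates 2 and 4 and in 1b-/- replicate 1, and the 1b-/- values lay on both sides of WT. *Kcnd3* (Kv4.3) varied less, at 12.6 and 13.2 RPKM in WT, 12.3, 12.2, 12.03 and 10.5 RPKM in 1b+/- and 12.2 and 11.4 RPKM in 1b-/-, with both WT libraries above the 6 others. *Kcnd1* was at 0.112 RPKM and was not tested.

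*Kcna* genes encode Kv1 subunits, low-threshold channels of axons and nerve terminals. The class was led by *Kcna2* (Kv1.2) at 8.73 and 8.69 RPKM in WT, 11.9, 13.4, 10.2 and 11.98 RPKM in 1b+/- and 9.81 and 11.01 RPKM in 1b-/-. Both WT libraries were the lowest of the 8, and the 1b-/- values lay within the range of 1b+/- except for 1 value below it. *Kcna6* had a mean of 6.34 RPKM, *Kcna4* (Kv1.4, an inactivating subunit) 5.99, *Kcna3* 4.54, *Kcna1* (Kv1.1, the partner of Kv1.2 in axons) 2.42 and *Kcna5* 1.60 RPKM. *Kcna7* and *Kcna10* were below 1 RPKM, at 0.164 and 0.0628. As a class, *Kcna* summed to 29.0 and 30.04 RPKM in WT and to 30.2 to 34.9 RPKM in the 6 libraries with a deletion, and its share of the members' sum was also lower in both WT libraries (9.11% and 9.25%) than in the others (from 9.82%). Of its 7 tested genes, 4 had estimates above 0 and 3 below 0 in 1b+/- against WT.

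*Kcnb* genes encode Kv2 subunits, the delayed rectifiers of the soma and proximal dendrites. *Kcnb2* stayed between 4.03 and 5.13 RPKM.

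*Kcnc* genes encode Kv3 subunits, which open and close fast and let interneurons fire at high rates. *Kcnc1* had a mean of 3.48 RPKM, *Kcnc2* 3.09 and *Kcnc4* 1.99. *Kcnc2* had the lowest coefficient of variation of the 41 members with a mean of at least 10 CPM. It was 3.49% over 8 libraries that differ in genotype and sex, against a median of 17.1% over those members and 13.7% over all 9609 genes at that level. Counting error in the shallow libraries is larger than this at the level of *Kcnc2*. This lowest value of 41 therefore does not measure how steady the gene is. *Kcnc4* was at 1.67 and 2.695 RPKM in WT, 3.44, 1.78, 1.69 and 1.88 RPKM in 1b+/- and 1.26 and 1.496 RPKM in 1b-/-, where both 1b-/- libraries were the lowest of the 8.

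*Kcnq* genes encode Kv7 subunits, which carry the M-current that restrains repetitive firing. *Kcnq5* was at 11.2 and 12.1 RPKM in WT, 7.28, 11.3, 10.7 and 9.69 RPKM in 1b+/- and 14.3 and 9.12 RPKM in 1b-/-, and the 2 values of 1b-/- enclosed those of WT. *Kcnq5* held 47.7% of the class, *Kcnq3* had a mean of 6.70 RPKM, and *Kcnq1*, a channel of heart and epithelia, was at 0.335 RPKM.

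The 8 *Kcnh* genes (ether-a-go-go family) summed to 15.6 to 20.6 RPKM. *Kcnh8* led with a mean of 5.34 RPKM, then *Kcnh5* with 3.09, *Kcnh7* with 2.62, *Kcnh2* with 2.42, *Kcnh1* with 1.60 and *Kcnh3* with 1.29 RPKM, while *Kcnh4* (0.825) and *Kcnh6* (0.337) were below 1 RPKM. This order depends on the annotated lengths and is uncertain. The exons of *Kcnh8* held 1989 bp, all coding and without a start codon, and those of *Kcnh7* held 15226 bp. Both 1b-/- totals, 18.8 and 18.4 RPKM, were above both WT totals, 16.3 and 16.6 RPKM, and the 1b+/- totals overlapped both groups. In 1b-/-, totals of *Kcna* and *Kcnb* were also above WT without overlap, and those of *Kcnk*, *Kcnip* and *Kcng* below. Such separation of groups of 2 is common, with 11.6% of all tested genes higher and 12% lower in 1b-/-.

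**Figure D2:**
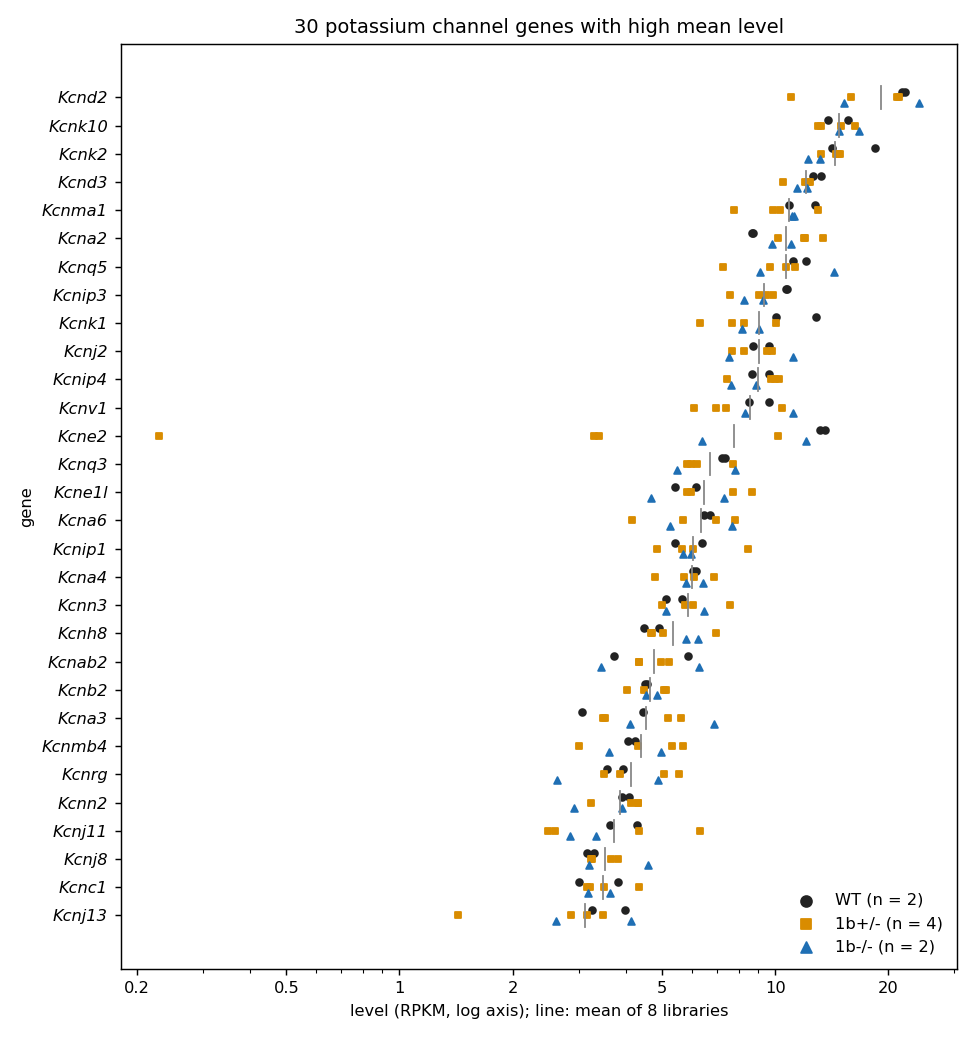
Level (RPKM, logarithmic horizontal axis) of 30 potassium channel genes with high means, 1 point for each of 8 libraries by genotype and a line at the mean. *Kcnd2*, *Kcnk10* and *Kcnk2* lead with means of 19.1, 14.8 and 14.4 RPKM, and *Kcne2* alone spreads from 0.229 to 13.5 RPKM.

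Two-pore-domain subunits (*Kcnk*) form leak channels that hold the resting potential, and 3 genes held 88.7% of the class. *Kcnk10* (TREK-2) was at 15.6 and 13.8 RPKM in WT, 13.3, 13.04, 14.9 and 16.3 RPKM in 1b+/- and 16.7 and 14.8 RPKM in 1b-/-, with all genotypes overlapping. *Kcnk2* (TREK-1, which like TREK-2 responds to stretch and lipids) was at 14.2 and 18.4 RPKM in WT, 13.2, 14.7, 14.5 and 14.9 RPKM in 1b+/- and 12.2 and 13.1 RPKM in 1b-/-, where both 1b-/- libraries were the lowest of the 8 and WT overlapped 1b+/-. *Kcnk1* (TWIK-1) was at 12.9 and 10.06 RPKM in WT, 7.66, 6.32, 10.03 and 8.27 RPKM in 1b+/- and 9.04 and 8.16 RPKM in 1b-/-, so both WT libraries were the highest, by a small margin over 1b+/- replicate 3. The other 11 were low, with *Kcnk3* (TASK-1) at 1.22 RPKM and the rest from 0.826 (*Kcnk9*) down to 0.0331 RPKM (*Kcnk16*), and 4 of them (*Kcnk7*, *Kcnk15*, *Kcnk16*, *Kcnk18*) were not tested. The class summed to 46.7 and 46.8 RPKM in WT and to 40.5 to 43.5 RPKM in the 6 others. As a share of the members' sum, which does not depend on the scaling between libraries, both WT libraries were again the highest, although 14.41% in WT replicate 2 and 14.37% in 1b+/- replicate 4 were all but equal.

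Inward rectifiers (*Kcnj*) pass current more easily into the cell and stabilise the resting potential. *Kcnj2* (Kir2.1) led the 15 genes with 9.60 and 8.73 RPKM in WT, 8.24, 9.81, 9.50 and 7.67 RPKM in 1b+/- and 11.2 and 7.54 RPKM in 1b-/-, and the 2 values of 1b-/- were the highest and the lowest of the 8. *Kcnj11* (Kir6.2) and *Kcnj8* (Kir6.1), the pores of ATP-sensitive channels, had means of 3.73 and 3.52 RPKM. Among the G protein-gated subunits, *Kcnj3* was at 2.26, *Kcnj9* at 1.16, *Kcnj6* at 0.855 and *Kcnj5* at 0.580 RPKM. *Kcnj12* was at 1.42, *Kcnj4* at 0.653 and *Kcnj15* at 0.187 RPKM, and *Kcnj14* and *Kcnj1*, at 0.104 and 0.0237 RPKM, were not tested. The class share had the lowest SD of the 7 and ran from 9.08% to 10.2%.

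Of the calcium- or sodium-activated pores, *Kcnma1*, the BK channel, was at 12.7 and 10.9 RPKM in WT, 13.003, 9.90, 10.3 and 7.79 RPKM in 1b+/- and 11.2 and 11.1 RPKM in 1b-/-. The 1b-/- values lay between the WT values, and the lowest was 1b+/- replicate 4. The SK channel genes *Kcnn3*, *Kcnn2* and *Kcnn1* followed at 5.84, 3.85 and 2.83 RPKM, and the sodium-activated *Kcnt2* and *Kcnt1* at 3.07 and 1.85 RPKM. *Kcnu1*, known from sperm, had 416 counts in all and a mean of 1.36 RPKM.

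Silent subunits, which join Kv2 pores and change their gating, were led by *Kcnv1* at 8.56 RPKM, then *Kcnf1* at 2.78, *Kcng2* at 1.73 and *Kcns2* at 1.64 RPKM. The rest ran from *Kcng1* at 0.799, *Kcng3* at 0.639, *Kcns1* at 0.531 and *Kcns3* at 0.524 down to *Kcng4* at 0.157 and *Kcnv2* at 0.0689 RPKM. *Kcnv1* held 99.2% of its class and was at 9.65 and 8.52 RPKM in WT, 6.94, 7.39, 10.4 and 6.09 RPKM in 1b+/- and 11.1 and 8.30 RPKM in 1b-/-, with overlap of all genotypes. Auxiliary subunits of Kv4 (*Kcnip*) summed to 24.3 to 28.7 RPKM, beside the 23.4 to 35.7 RPKM of the Kv4 pores. *Kcnip3* and *Kcnip4* were at 9.36 and 9.02 RPKM, *Kcnip1* at 6.06 and *Kcnip2* at 2.50 RPKM. *Kcnip3* was at 10.7 and 10.8 RPKM in WT, 7.58, 9.46, 9.86 and 9.04 RPKM in 1b+/- and 9.29 and 8.26 RPKM in 1b-/-, so both WT libraries were above the 6 others. Kv1 beta subunits were at 4.77 (*Kcnab2*), 2.14 (*Kcnab3*) and 1.75 RPKM (*Kcnab1*), and the BK partners *Kcnmb4* and *Kcnmb2* at 4.40 and 2.695 RPKM. *Kcnmb1* and *Kcnmb3* were below 0.1 RPKM and were not tested. Of the *Kcne* genes, single-pass beta subunits, *Kcne2* had a mean of 7.78 and *Kcne1l* of 6.46 RPKM, and *Kcne4*, *Kcne3* and *Kcne1* were at 0.304, 0.259 and 0.119 RPKM. *Kcnrg*, which encodes a soluble regulator of channel assembly, was at 4.12 RPKM.

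*Kcnq1ot1*, a long non-coding RNA read antisense to *Kcnq1* from the paternal chromosome, is named by the rule but encodes no channel. It had the most counts of all members (15525) and no length in the annotation. Its CPM was 137 and 89.6 in WT, 226 and 323 in the male 1b+/- libraries, 201 and 103 in the female ones, and 199 and 144 in 1b-/-. Its coefficient of variation over the libraries was 42.8%. The antisense transcripts *Kcnd3os* and *Kcnmb4os1*, with 36 and 2 counts in all, were not tested.

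**Figure D3:**
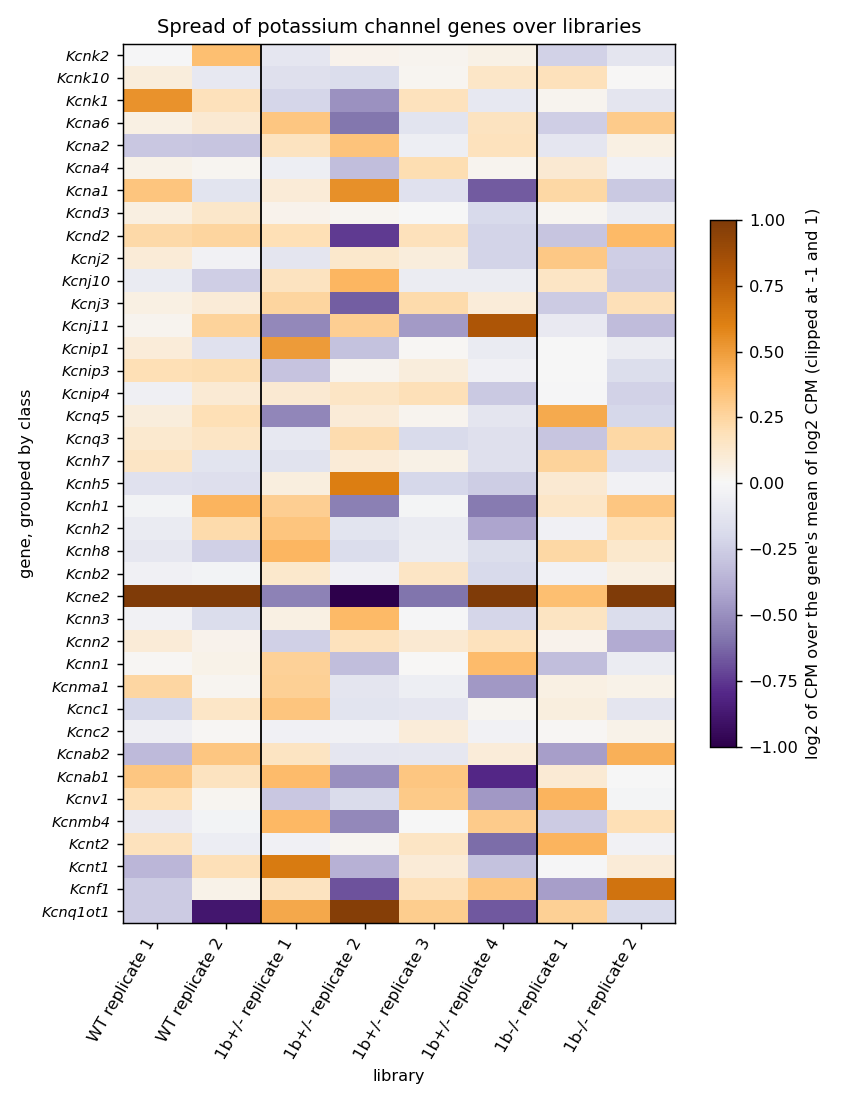
Colour gives log2 of the CPM over the gene's mean of log2 CPM for 39 of the 41 potassium channel genes with a mean of at least 10 CPM (rows, by class) in 8 libraries (columns), clipped at -1 and 1. *Kcne2* and *Kcnq1ot1* spread most, *Kcnc2* stays pale throughout, and no block of genes changes colour in step from WT to 1b+/- to 1b-/-.

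Whether any member follows the number of deleted alleles was tested with a slope over 0, 1 and 2 alleles in edgeR's quasi-likelihood test over the 15588 genes that reached 1 CPM somewhere, of which 84 were potassium channel genes. The 13 others had 2 to 54 counts in all. After Benjamini-Hochberg adjustment 0 of 84 members passed 0.05 (background over all genes 0.0385%), with a smallest adjusted p of 0.99993. Unadjusted, 0 members had a p under 0.05 with a rising slope (background 0.789%) and 2 with a falling slope (background 0.943%). These were *Kcnv2*, a silent subunit of the retina with 31 counts in all (log2 -1.31 per allele, SE 0.60), and *Kcnk2* (log2 -0.18 per allele, SE 0.08, 95% interval -0.36 to -0.0015). The 2 became 0 with upper quartile scaling, with no filter and on leaving out 1b+/- replicate 1, 3 or 4 or either 1b-/- library. By DESeq2's Wald test 0 members passed the adjusted threshold here or in any of the comparisons that follow. In no member did the values of the 3 genotypes form separate ranges in the order of allele number, either rising (background 0.135%) or falling (background 0.077%), and neither did the summed RPKM of any class. A slope above 0 was found for 46 of 84 members (54.8%, against 49.6% of all genes). The median slope was 0.005 over members and -0.001 over all genes (log2 per allele). For 69 of 84 members (82.1%, against 85.8% of all genes) the 95% interval of the slope lay within 1 log2 unit of 0, so the data bound a change of that size per allele. Among members with many reads the intervals were narrower, at -0.22 to 0.08 for *Kcnd3*, -0.13 to 0.23 for *Kcnk10* and -0.17 to 0.21 for *Kcnc2*.

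**Figure D4:**
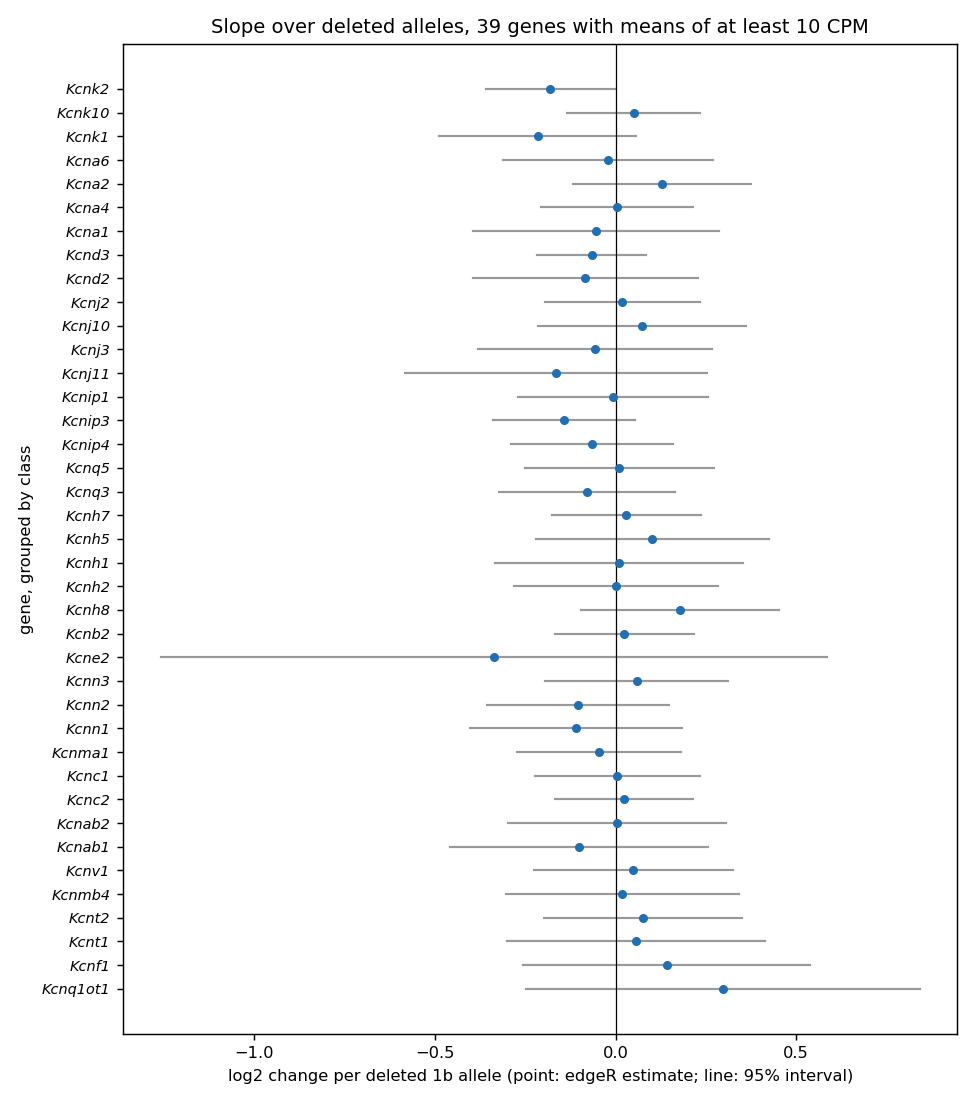
Slope over deleted alleles (log2 change per allele, horizontal axis; point, edgeR estimate; line, 95% interval) for 39 of the 41 potassium channel genes with a mean of at least 10 CPM, by class. Every interval drawn but that of *Kcnk2* holds 0, and *Kcnk2* ends just below it.

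Between 1b+/- and WT, 0 of 84 members passed the adjusted threshold of edgeR's quasi-likelihood test (background 0.0834%), with a smallest adjusted p of 0.99994. Unadjusted, 4 had a p under 0.05 and a higher level in 1b+/- (background 2.5%), namely *Kcna2* (log2 0.44, SE 0.16), *Kcnq1ot1* (0.92, SE 0.35), *Kcnh6* (1.31, SE 0.54) and *Kcnj6* (0.77, SE 0.35). The lower ones were 2 (background 1.83%), *Kcne2* (-1.88, SE 0.68) and *Kcnk1* (-0.51, SE 0.20). These 6 members became 3 on leaving out WT replicate 1, WT replicate 2 or 1b+/- replicate 1, and 2 by DESeq2's Wald test. *Kcnj6*, a G protein-gated subunit, was at 4.55 and 2.45 CPM in WT and at 8.98, 5.25, 5.14 and 4.67 CPM in 1b+/-, so the groups did not overlap but 1 library stood far above the rest. *Kcnh6* was near the limit of depth, at 0.661 and 0.613 CPM in WT against 2.31, 1.51, 1.31 and 1.002 CPM in 1b+/-. Values of the 2 groups did not overlap in 4 members higher in 1b+/- (4.76%, background 6.4%) and 6 lower (7.14%, background 5.93%), shares near those of all genes. The lower ones were *Kcne2*, *Kcnk1*, *Kcnip3*, *Kcns1*, *Kcnd2* and *Kcnd3*. For 56 of 84 members (66.7%, against 70.2% of all genes) the 95% interval lay within 1 log2 unit of 0, and 49 (58.3%, against 52.1%) had an estimate above 0.

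Against WT, 1b-/- also gave 0 of 84 members at the adjusted threshold of the same test (background 0.00642%), and 0 with an unadjusted p under 0.05 that were higher (background 0.917%) or lower (background 0.719%). Estimates with small p-values were *Kcnk2* (log2 -0.36, SE 0.18), *Kcns1* (-1.05, SE 0.58) and *Kcnv2* (-2.22, SE 1.30) among the lower, and *Kcnq1ot1* (0.59, SE 0.39) and *Kcna3* (0.59) among the higher. Groups of 2 did not overlap in 10 members higher in 1b-/- (11.9%, background 11.6%) and 15 lower (17.9%, background 12%). The 95% interval stayed within 1 log2 unit of 0 in 47 of 84 members (56%, against 66.1% of all genes), and 46 (54.8%, against 48.9%) had an estimate above 0. The male sex of both WT and the female sex of both 1b-/- libraries enter each of these values.

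Between 1b-/- and 1b+/-, 0 of 84 members passed the adjusted threshold (background 0.00642%), and 0 had an unadjusted p under 0.05 in either direction (background 0.455% higher and 0.776% lower). No member was higher without overlap (background 3.41%), and 3 were lower without overlap (3.57%, background 3.98%), *Kcnc4* (log2 -0.71, SE 0.38), *Kcnj6* (-0.47, SE 0.36) and *Kcnk2* (-0.18, SE 0.16). The smallest p among higher estimates was that of *Kcne2* (1.31). Estimates above 0 were found for 40 of 84 members (47.6%, against 49% of all genes), and intervals within 1 log2 unit of 0 for 55 (65.5%, against 71%).

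Female and male 1b+/- mice, the only genotype with both sexes, gave 0 of 84 members at the adjusted threshold (background 0.0321%), with a smallest adjusted p of 0.99989 in edgeR's quasi-likelihood test. Unadjusted, 0 were higher (background 0.616%) and 4 lower (background 2.05%) in females, *Kcnq1ot1* (log2 -0.83, SE 0.32), *Kcna1* (-0.67, SE 0.28), *Kcnk5* (-1.11, SE 0.48) and *Kcnh5* (-0.59, SE 0.25). *Kcna1* was at 22.6 and 30.8 CPM in the males and 19.05 and 13.4 CPM in the females, with the lowest value in the library of lowest depth. Females were lower without overlap in 20 members (23.8%, background 14.1%) and higher in 5 (5.95%, background 12.1%), and the median difference was -0.12 (log2) over members against -0.004 over all genes. Estimates were above 0 for 30 of 84 members (35.7%, against 49.3% of all genes), and intervals lay within 1 log2 unit of 0 for 43 (51.2%, against 64.5%). The shallowest library, 1b+/- replicate 4, is 1 of the 2 females and held the lowest value of 24 of 84 members (28.6%, against 18.3% of all genes), while 1b+/- replicate 1, a male, held the highest of 19 (22.6%, against 15.3%). Without 1b+/- replicate 4 the 4 members with an unadjusted p under 0.05 became 0, without any other 1b+/- library they became 7 or 8, and without WT replicate 1, WT replicate 2 or 1b-/- replicate 2, which are in neither group, 2.

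*Kcne2* encodes a beta subunit that choroid plexus epithelium uses, and its level moved with some markers of that epithelium. It was at 13.1 and 13.5 RPKM in WT, 3.40, 0.229, 3.29 and 10.2 RPKM in 1b+/- and 6.37 and 12.04 RPKM in 1b-/-, a 59.2-fold range. The lowest value, in 1b+/- replicate 2, rests on 4 counts, so the size of this range is uncertain. Low values were in 1b+/- replicates 1, 2 and 3, while 1b+/- replicate 4 was close to WT. The 12 choroid plexus markers, all tested and none at 0 in every library, summed to 990 and 1050 CPM in WT, 241, 36.6, 193 and 1000 CPM in 1b+/- and 439 and 866 CPM in 1b-/-, a 28.7-fold range. *Ttr*, which encodes transthyretin, carried most of the sum in every library but 1b+/- replicate 2, from 6.77 CPM there to 938 CPM. The other 11 summed to 106 and 112 CPM in WT, 73.4, 29.8, 39.9 and 114 CPM in 1b+/- and 60.2 and 100.1 CPM in 1b-/-, a 3.81-fold range. Of the 12 markers, 8 had their lowest value in 1b+/- replicate 2, where *Kcne2* was also lowest, whereas *Kl* stayed between 2.37 and 3.72 CPM and *Otx2* and *Prlr* were highest in 1b+/- replicate 1. *Kcne2* was at 1.10% to 3.01% of the whole sum in every library, and the 1.10% is that of 1b+/- replicate 2 with its 4 counts. The part of choroid plexus content in the difference between 1b+/- and WT was not tested. *Kcne2* made up 52.1% of the *Kcne* class, so that the class ran from 6.87 to 19.99 RPKM.

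*Kcnj13* (Kir7.1), the inward rectifier of the same epithelium, ranged only 2.89-fold, from 1.82 to 5.26 CPM. Of the union of its exons, 49.1% overlaps *Gigyf2* on the opposite strand, a gene at 151 to 194 CPM, and the use of strand in the counting was not stated. The level of *Kcnj13* is therefore uncertain.

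**Figure D5:**
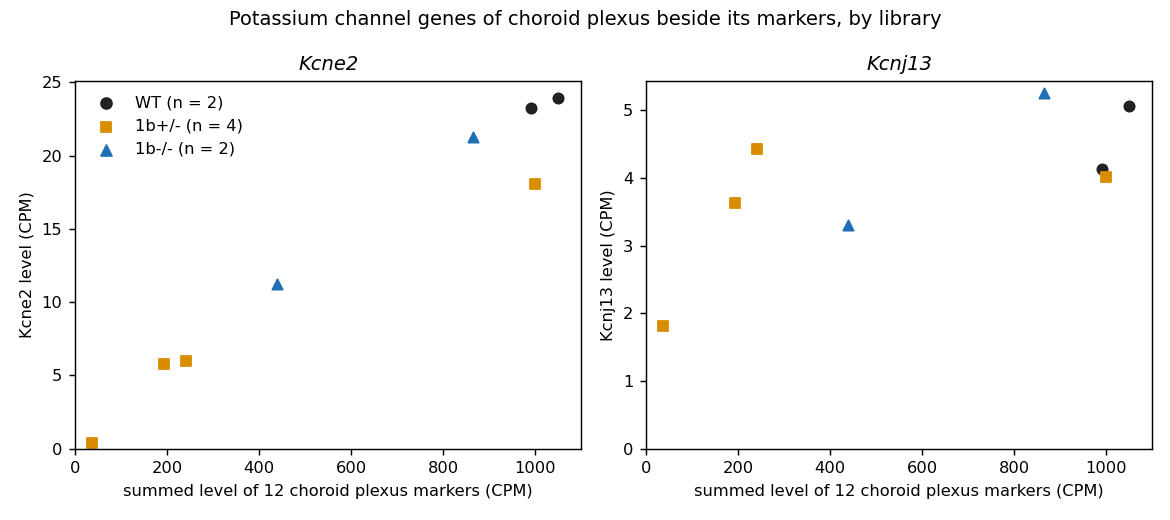
CPM of *Kcne2* (left) and *Kcnj13* (right) against the summed CPM of 12 choroid plexus markers, of which *Ttr* is the largest part in most libraries, 1 point for each of 8 libraries by genotype. *Kcne2* is low where the sum is low, from 0.404 to 23.9 CPM, whereas *Kcnj13* stays between 1.82 and 5.26 CPM.

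Of the members known from glia and vessels, *Kcnj10*, *Kcnj16* and *Kcnj8* varied less. *Kcnj10* (Kir4.1), which clears potassium in astrocytes, was at 11.3 and 10.1 CPM in WT, 13.5, 15.9, 11.4 and 11.4 CPM in 1b+/- and 13.3 and 10.01 CPM in 1b-/-, and 9 astrocyte markers summed to 863 to 1182 CPM. *Kcnj16*, its partner subunit, was at 2.33 to 4.51 CPM. *Kcnj8* of pericytes was at 6.90 to 10.01 CPM, a 1.45-fold range. The sum of 12 vascular and meningeal markers ranged 2.01-fold and was highest in 1b+/- replicate 1. There *Col1a1* alone was at 380 CPM, against 50.6 to 102 CPM in the other libraries, so the wider range of the sum leans on this gene. The microglial *Kcnk13* ranged 3.27-fold and *Kcnn4* went down to 0 CPM, but they were at most 1.502 and 1.72 CPM, near the limit of depth.

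A list of 13 potassium channel genes linked to human epilepsy, the class of disease that *SCN1A* mutations cause, was wholly measured. None of the 13 passed the adjusted threshold in any genotype contrast or in the slope, and *Kcna2*, higher in 1b+/- than in WT, was the 1 with an unadjusted p under 0.05 (background for that direction 2.5%). Their median estimate (log2) was 0.04 for 1b+/- and 0.06 for 1b-/-, each set against WT, beside 0.01 and -0.01 over all genes. Slopes per allele (log2) were above 0 for 9 of the 13 (against 49.6% of all genes). Their median was 0.03, beside -0.001 over all genes. Slopes below 0 were those of *Kcnd2* (-0.08), *Kcna1* (-0.05), *Kcnq3* (-0.08) and *Kcnma1* (-0.05). Among those above 0 were *Kcna2* (0.13) and *Kcnt1* (0.06). Of 24 genes for proteins that assemble with or anchor these channels but carry other symbols, 21 were tested and 0 passed the adjusted threshold in any genotype contrast or in the slope (background 0.0834% for 1b+/- against WT). In 1b+/- against WT, 4 of the 21 had estimates above 0 (against 52.1% of all genes), with a median of log2 -0.11. For 1b-/- against WT these were 9 (against 48.9%) and -0.05. *Lgi1*, which encodes a secreted ligand of the Kv1-associated ADAM22 and ADAM23, was the 1 with an unadjusted p under 0.05 between genotypes, lower in 1b+/- than in WT (background 1.83%) and higher in 1b-/- than in 1b+/- (background 0.455%), at 34.5 and 37.2 CPM in WT, 26.5, 21.5, 30.5 and 26.0 CPM in 1b+/- and 32.1 and 40.6 CPM in 1b-/-. Set against WT, its estimate was log2 -0.45 (SE 0.18) for 1b+/- and 0.01 (SE 0.21) for 1b-/-, so it did not follow allele number.

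Some members are neighbours. Mean levels within 10 neighbouring pairs differed from 1.51-fold to 170-fold, and the order was the same in 8 of 8 libraries in 9 pairs. The exception was *Kcnj9* and *Kcnj10*, 11.9 kb apart on chromosome 1, which differed 1.94-fold with the same order in 7 libraries. On mm9 chromosome 3, *Kcna3*, *Kcna2* and *Kcna10* lie on the same strand with 63.4 kb and 76.2 kb between them and had means of 4.54, 10.7 and 0.0628 RPKM. On chromosome 6, *Kcna5*, *Kcna1* and *Kcna6* were at 1.60, 2.42 and 6.34 RPKM, in that order in 8 of 8 libraries. *Kcnj16* and *Kcnj2*, 38.2 kb apart on chromosome 11, differed 10.7-fold, and *Kcne2* and *Kcne1*, 47.9 kb apart on chromosome 16, differed 65.3-fold in mean level. Exons of 9 members overlap an antisense gene, over 51.8% of the union of exons of *Kcnmb4*, 49.1% of *Kcnj13*, 39.5% of *Kcna6* and 31.1% of *Kcnj3*, and over 5.13% or less in others, among them *Kcnab3*, *Kcnd3*, *Kcnh7* and *Kcnq5*.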

How the data were processed

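Messenger RNA libraries of 8 P7 mice were analysed. Per the labels and methods of the study, the authors made stranded poly(A) libraries read from a single end, aligned them to mm9 with STAR 2.7.2 and counted reads per gene with featureCounts. The submitters' processing notes also name FastQC and edgeR. The deposited values are raw counts per gene symbol, not normalized. How strand and multiply mapped reads were treated was not stated, so genes with close copies or antisense partners are less certain.

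Genotype and sex were taken from the labels, and replicates were numbered in deposit order. Members and lists were chosen with earlier results of these data known. Symbols were matched to GENCODE exons on the same build, mm9 (94 of 97 members). Genes reaching 1 CPM in any library were tested in R 4.3.3 with edgeR 4.0.16 (TMM scaling, quasi-likelihood test, genotype only, all libraries in 1 fit, Benjamini-Hochberg over 15588 genes). Standard errors were derived from the F statistic and 95% intervals from the fitted degrees of freedom. Class totals are summed RPKM, with no test. Nothing in the sources used here says whether animals shared litters, so p-values measure the spread between these animals. The analysis was tested on simulated data with planted changes of at least 1 log2 unit between WT and 1b-/-. Recovery of smaller changes was not tested. Members named are the 2 highest of each class, the 3 smallest p-values in each direction, the epilepsy list and the cell type genes. Other members are named to account for the set, and a few are not reported here. Figures were drawn with matplotlib 3.10.9.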

Additional observations from a re-analysis of the deposited data

Results flagged for a closer look

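In the group of 4 1b+/- libraries, 73 measures (members named by the fixed rules, whatever their reads, and class totals) were screened by Dixon's test. A library stood apart from the other 3 in 6 of them, where chance gives about 3.65. Some members were named for small p-values in contrasts that used these libraries, and members enter class totals, so the number given by chance is a rough guide. *Kcnc4* was at 10.4 CPM in replicate 1 and at 5.09 to 5.68 CPM in the others, *Kcnh8* at 13.9 CPM in replicate 1 and 9.29 to 9.98 CPM in the others, and *Kcnj6* at 8.98 CPM in replicate 1 and 4.67 to 5.25 CPM in the others. The summed level of the *Kcnc* class was 12.3 RPKM in replicate 1 and 9.27 to 9.68 RPKM in the others, and *Kcnc4* is part of that sum. *Kcnc2* was at 20.4 CPM in replicate 3, above 18.6 to 18.7 CPM in the others. Those others all but agreed, and counting error in the shallowest of them is larger than their spread, so this flag carries little weight. *Kcnd3* was at 100.5 CPM in replicate 4, the shallowest library, below 115.3 to 118.3 CPM in the others.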

How the results depend on the processing

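No member passed the adjusted threshold in any of 17 alternatives for 1b+/- against WT, 16 for 1b-/- against WT, 17 for 1b-/- against 1b+/- and 15 for the slope, including fits of males only and females only, which were added after seeing the data. The smallest adjusted p among them was 0.0677, for *Kcne2* in 1b+/- against WT with no filter. Female against male within 1b+/- gave 2 members with no filter, *Kcne2* and *Kcnq1ot1*, and 0 in the 13 other alternatives. Members with an unadjusted p under 0.05 numbered 2 to 8 over the alternatives for 1b+/- against WT, 0 to 2 for 1b-/- against WT (2 where sex was a covariate), 0 to 2 for 1b-/- against 1b+/- (2 without 1b+/- replicate 4), 0 to 3 for the slope and 0 to 8 for sex. No paired analysis was possible because the labels number no replicates and deposit order pairs no animals.

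Shares of the summed level with the longest transcript as length were 9.15% for *Kcna*, 5.62% for *Kcnb* and 8.71% for *Kcnj*. With no length they were 4.51% for *Kcnc*, 15.1% for *Kcnd*, 8.35% for *Kcnj*, 9.57% for *Kcnk* and 11.5% for *Kcnq*. Leaving out any library kept *Kcnk* first, at 13.8% to 14.1%.

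Estimates of named genes, none of them past the threshold, kept their direction in 503 of 518 refits of 33 estimates. With sex as a covariate the slope changed sign for *Kcna1* (0.28), *Kcnma1* (0.11), *Kcnq3* (0.034) and *Kcnq5* (-0.065), and with no filter for *Kcnc1* (-0.00065). Over the fits that each left out 1 library, slopes changed sign for *Kcna1* (-0.17 to 0.054), *Kcnc1* (-0.076 to 0.066), *Kcnma1* (-0.082 to 0.033), *Kcnt1* (-0.072 to 0.15), *Kcnj10* (-0.00030 to 0.18), *Kcnq5* (-0.19 to 0.082) and *Kcnt2* (-0.069 to 0.17), and the estimate of 1b-/- against 1b+/- did for *Kcnq5* (-0.095 to 0.56). The libraries concerned were WT replicate 1 (*Kcna1*, *Kcnc1*, *Kcnma1*, *Kcnt1*), WT replicate 2 (*Kcnj10*), 1b-/- replicate 1 (*Kcnc1*, *Kcnq5*, *Kcnt2*) and 1b-/- replicate 2 (*Kcna1*). The cause of these changes was not tested.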
